A study of Mus musculus with 6 samples.

Results

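The genes described here encode the enzymes that cut, trim and cross-link the extracellular matrix, and the inhibitors that hold them in check. They are the protein-coding genes of the deposited table whose symbols place them among the matrix metalloproteinases (Mmp), the tissue inhibitors of metalloproteinases (Timp1 to Timp4), the Adamts proteases with their ADAMTS-like relatives (Adamtsl), and the lysyl oxidases (Lox and Loxl1 to Loxl4). There were 55 such genes among 54532 rows: 22 Mmp, 4 Timp, 19 Adamts, 5 Adamtsl and 5 lysyl oxidase genes. The rule used symbols and biotypes and no expression value, though it was set with earlier results of these data known. RNA sequencing had been run on inguinal white adipose tissue, the subcutaneous fat pad of the groin, from old mice kept in the cold for 7 days. One group of 3 libraries came from estrogen-treated mice and the other group of 3 from vehicle-treated mice, and cold exposure was common to both. The labels give no strain, sex, exact age, estrogen dose or route, and they do not say whether each library came from one animal, so the p-values below measure the spread between these libraries, which may be partly technical.

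Matrix metalloproteinases are zinc-dependent proteases that are made as inactive precursors and, once activated, cleave collagens, elastin, proteoglycans and many cell-surface proteins. Timp proteins block their active site, and some also inhibit ADAM and ADAMTS enzymes. Adamts proteases process procollagens and cleave large proteoglycans, Adamtsl proteins share their ancillary domains but lack the protease, and lysyl oxidases oxidise lysine residues of collagen and elastin so that fibres become cross-linked. In adipose tissue this machinery remodels the collagen scaffold as fat cells grow, shrink or differentiate, and fibroblasts, progenitors and macrophages are known as its main sources.

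Total counts ran from 16046601 to 20736771 per library, and a count of 3, taken as the floor of detection, equalled 0.13 to 0.209 CPM (library-size-normalised counts, with TMM factors applied). The adipocyte markers Adipoq, Plin1, Fabp4 and 5 others summed to 16950 to 25910 CPM in estrogen libraries and 12040 to 15880 CPM in vehicle libraries. Adipocyte RNA was thus abundant in every library, but these sums do not tell inguinal fat from other fat. Mammary epithelial markers summed to at most 0.622 CPM in any library. Some libraries stood apart. Skeletal muscle markers summed to 7643 CPM in estrogen replicate 1 and to 3.05 to 67.0 CPM in the other 5 libraries. B cell markers summed to 151 and 99.0 CPM in estrogen replicates 1 and 3, against 6.02 CPM in estrogen replicate 2 and 3.96 to 6.64 CPM in vehicle libraries. T cell markers summed to 73.0, 5.43 and 12.5 CPM in estrogen replicates 1 to 3 and 3.09 to 5.81 CPM in vehicle libraries. Neutrophil markers summed to 26.8 to 32.8 CPM in estrogen libraries and to 161.5, 35.4 and 32.3 CPM in vehicle replicates 1 to 3.

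Of the 55 genes, 46 passed the low-count filter and were tested among 15591 genes. With estrogen, 39 of these 46 lay lower and 7 higher. The median log2 fold change, estrogen over vehicle, was -0.86 for the 46 and 0.002 for all genes tested. No member passed edgeR's quasi-likelihood test at an adjusted p of 0.05 (smallest adjusted p = 0.207 among members and among all genes, where 0% were called in either direction). At an unadjusted p under 0.05, 23 members were lower (50%) and 1 was higher (2.17%), against 10.9% lower and 9.49% higher of all genes tested. Without vehicle replicate 2, 10 of 47 tested members were lower and 0 higher. In that fit 1459 of 16115 genes lay at an unadjusted p under 0.05 in either direction, against 3185 of 15591 in the main fit. With both estrogen replicates that were high in B cell markers left out, 1 estrogen library remained. The family medians of the log2 fold change then ran from -0.95 (lysyl oxidases) to -0.62 (Adamts), against -0.055 for all genes. With 1 library, that group has no spread of its own to measure. DESeq2, applied to the same counts, called 12 members lower (26.1%) and 0 higher, against 3% lower and 2.48% higher of all genes. The estrogen and vehicle libraries did not overlap for 22 members, 21 of them lower with estrogen (45.7%, against 14.7% of all genes) and 1 higher (2.17%, against 12.8%). In the 6 libraries together, estrogen replicate 3 was the lowest for 32 of the 46 members (69.6%, against 29.4% of all genes) and vehicle replicate 2 the highest for 28 (60.9%, against 22.3%). In bulk tissue, fewer cells of a type and less RNA per cell cannot be told apart.

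**Figure D1:**
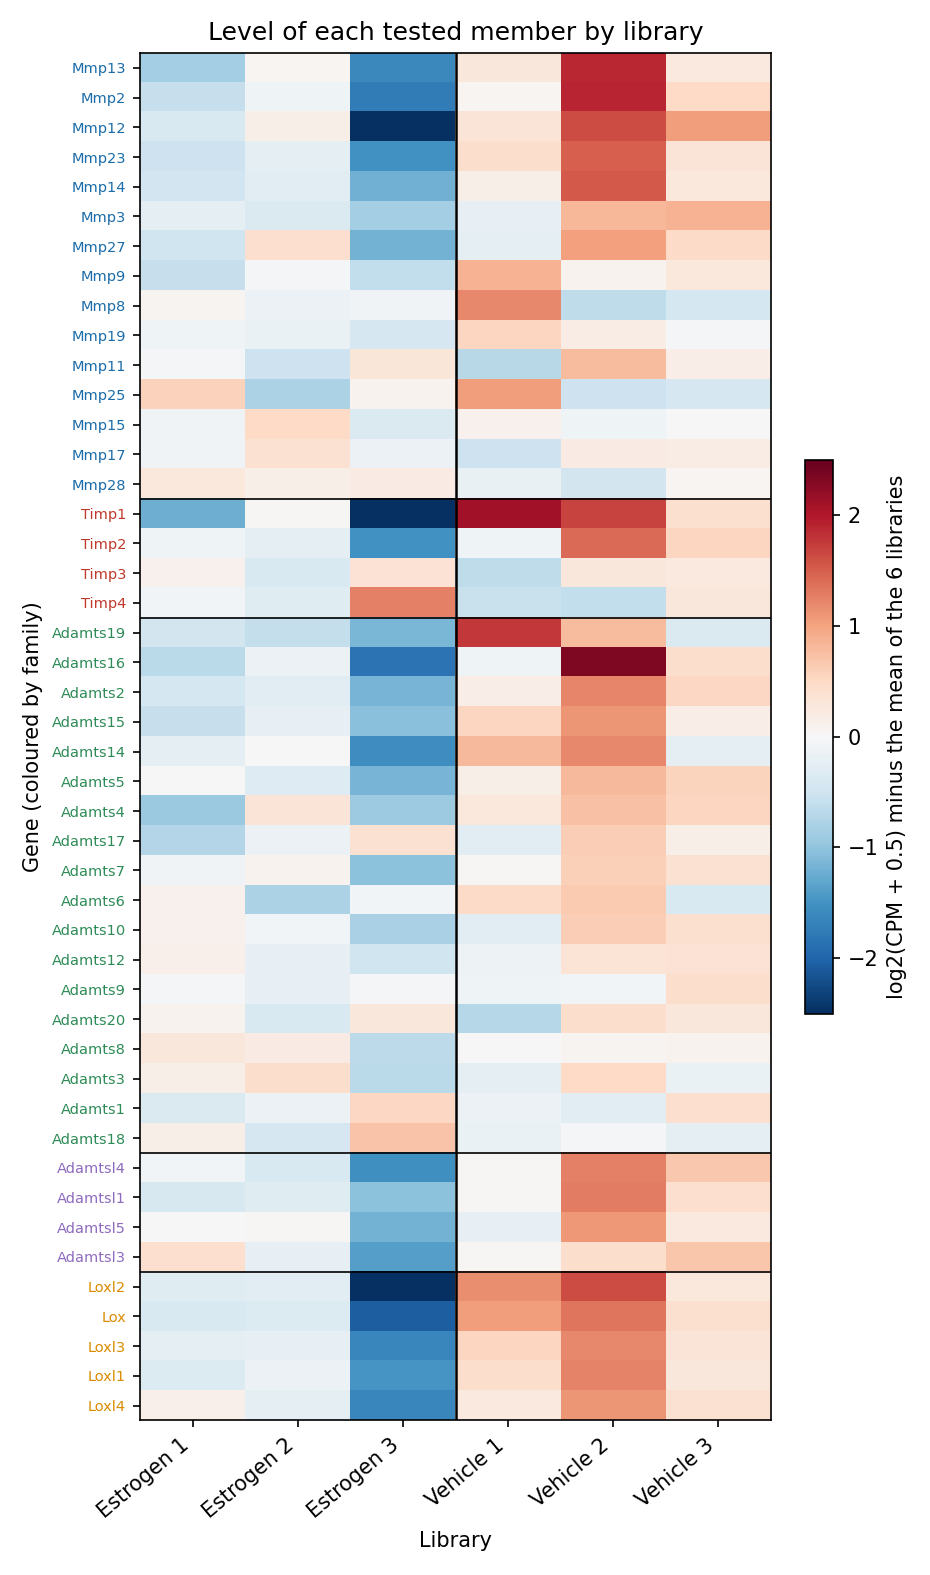
Level of each of the 46 tested members by library, as log2(CPM + 0.5) minus the mean of the 6 libraries, with genes grouped by family and ordered by fold change. Estrogen replicate 3 is the bluest column (lowest for 32 members) and vehicle replicate 2 the reddest (highest for 28), while Timp3, Timp4, Adamts1 and Adamts18 are highest in estrogen replicate 3.

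Per kilobase of gene length, which allows levels to be compared between genes, the most abundant member was Timp2 in both groups, at 94.5 ± 42.1 CPM per kb with estrogen and 224.8 ± 119 with vehicle (SD, n = 3). Mmp2 came next (67.1 ± 33.7 with estrogen, 219 ± 157 with vehicle) and Loxl1 after it (44.7 ± 18.6 with estrogen, 107.6 ± 41.0 with vehicle). Within each group these 3 ranges of mean ± SD overlapped. Timp1 had rank 8 in estrogen libraries, at 16.2 ± 14.4 CPM per kb, and rank 4 in vehicle libraries, at 93.5 ± 48.3 CPM per kb.

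The gelatinases, which digest denatured collagen and basement membrane, were both lower with estrogen. Gene positions are given on mm10, from the deposited table. Mmp2 (ENSMUSG00000031740, chromosome 8, 92827291 to 92853420), the gelatinase of fibroblasts, had 241, 332 and 106 CPM in estrogen replicates 1 to 3, against 369.6, 1345 and 504 CPM in vehicle replicates 1 to 3. Every estrogen library lay under every vehicle library, and vehicle replicate 2 stood far above the others. Its log2 fold change was -1.71 ± 0.58 (SE; edgeR adjusted p = 0.208, DESeq2 adjusted p = 0.0335), and without vehicle replicate 2 it was -0.95. Mmp9, the gelatinase of neutrophils and macrophages (ENSMUSG00000017737, chromosome 2, 164940780 to 164955850), had 15.9, 23.2 and 15.5 CPM with estrogen and 44.2, 25.6 and 28.7 CPM with vehicle. The groups were again separate, and here vehicle replicate 1, the library high in neutrophil markers, held the highest value. The log2 fold change of Mmp9 was -0.85 ± 0.25 (DESeq2 adjusted p = 0.0616) and -0.58 without that library. The part of neutrophils in this difference was not tested.

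The membrane-type enzymes sit on the cell surface, and their members differed. Mmp14 (ENSMUSG00000000957, chromosome 14, 54431612 to 54445364), the main cell-surface collagenase and the activator of pro-Mmp2, had 152, 175 and 91.2 CPM in estrogen libraries and 234, 613 and 253 CPM in vehicle libraries. All estrogen libraries were lower than all vehicle libraries, with a log2 fold change of -1.39 ± 0.43 (edgeR adjusted p = 0.207, DESeq2 adjusted p = 0.0264), and -0.80 without vehicle replicate 2. Mmp15, a close relative on the cell surface, had 18.6, 28.2 and 15.3 CPM with estrogen and 21.3, 18.3 and 19.7 CPM with vehicle, a log2 fold change of 0.07 ± 0.23 whose sign turns when counts are scaled by library totals alone (-0.09). Mmp17, a lipid-anchored enzyme with 1.61, 2.42 and 1.53 CPM with estrogen and 1.07, 2.07 and 2.04 CPM with vehicle, was at 0.10 ± 0.38, also negative by library totals alone (-0.07). Mmp25, a lipid-anchored enzyme of leukocytes, had 1.97, 0.458 and 1.25 CPM with estrogen and 2.90, 0.658 and 0.738 CPM with vehicle, highest in vehicle replicate 1. Its log2 fold change of -0.20 ± 0.73 became 0.82 without that library. Across the 4 tested membrane-type genes the median was -0.07.

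**Figure D2:**
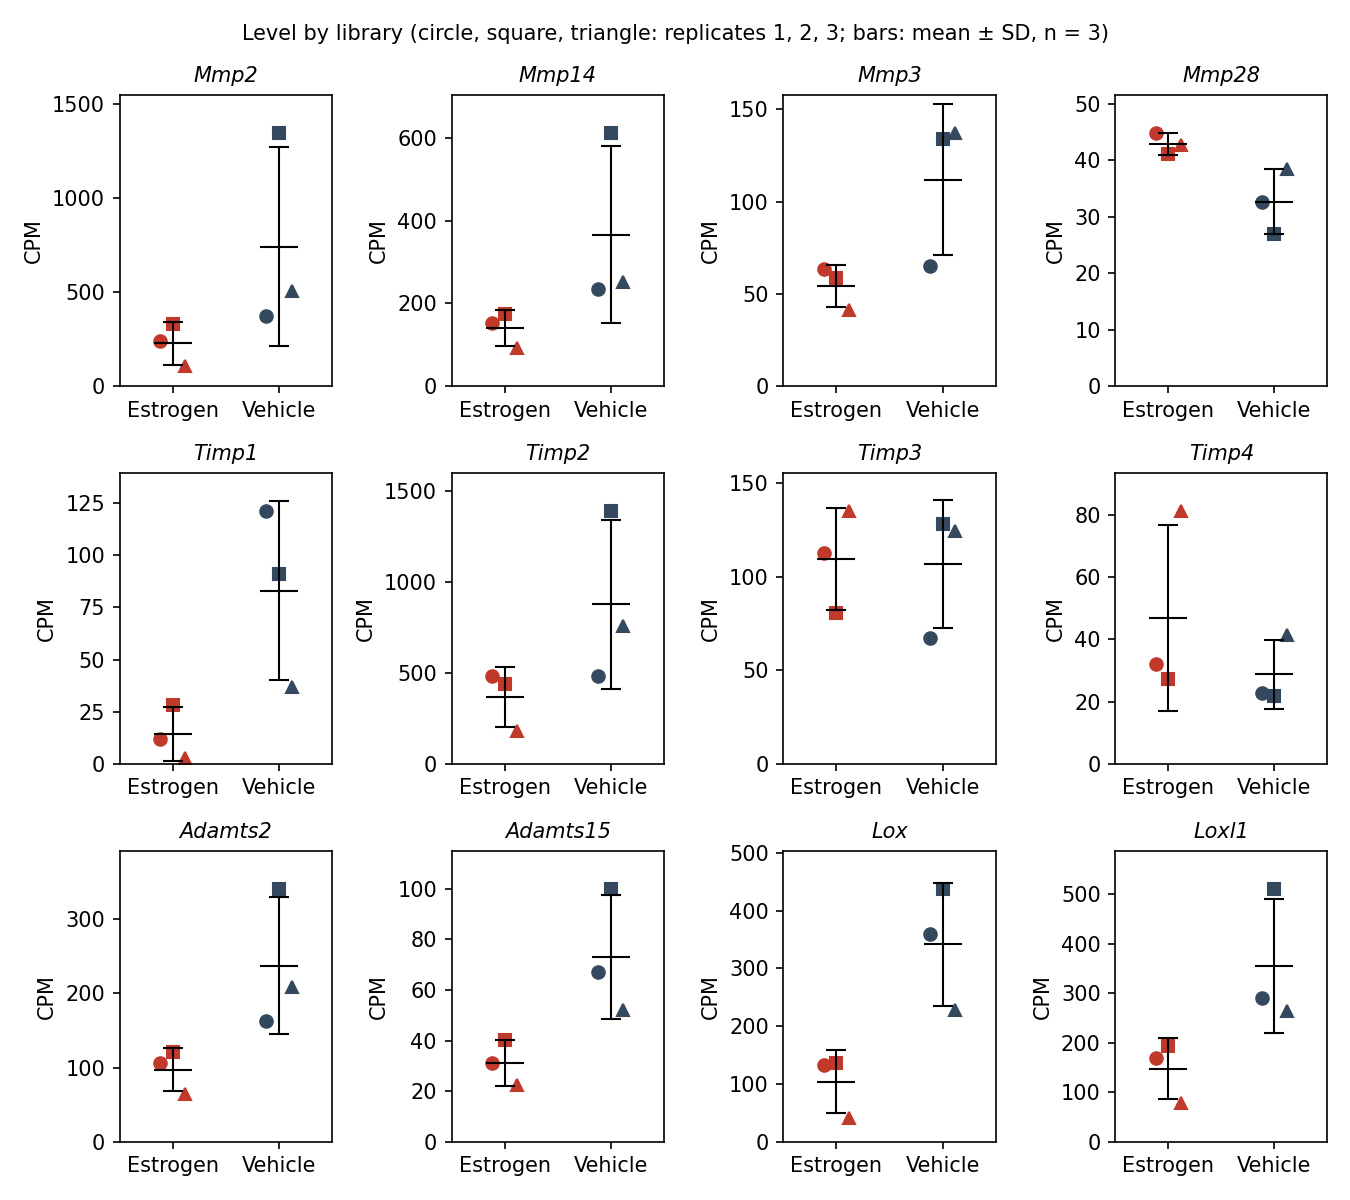
CPM in each library for 12 members, with estrogen libraries left and vehicle libraries right in each panel, symbols for replicates 1 to 3, and bars for the mean ± SD (n = 3). Mmp2, Mmp14, Mmp3, Timp1, Adamts2, Adamts15, Lox and Loxl1 separate the groups with estrogen lower, Mmp28 separates them with estrogen higher, and Timp2, Timp3 and Timp4 overlap.

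A block of 9 Mmp genes lies on chromosome 9, from 7272514 to 7699585, in the order Mmp13, Mmp12, Mmp1b, Mmp3, Mmp10, Mmp8, Mmp27, Mmp20 and Mmp7. It holds collagenases, stromelysins, the macrophage elastase and matrilysin. Of these, 5 passed the filter. All 5 had negative log2 fold changes, from -2.05 to -0.48, and 3 had separate groups, against 14.7% of all genes with estrogen lower and separate groups. At an unadjusted p under 0.05, 3 of the 5 were lower, against 10.9% of all genes tested, and edgeR called 0 at the adjusted threshold.

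Mmp3, or stromelysin 1, cleaves proteoglycans and activates other proenzymes (ENSMUSG00000043613, chromosome 9, 7445822 to 7455975). It had 63.2, 58.3 and 41.4 CPM in estrogen replicates 1 to 3, against 64.8, 134 and 137 CPM in vehicle replicates 1 to 3. Vehicle replicate 1 lay just above the highest estrogen library, and the other vehicle libraries lay well above it. The log2 fold change was -1.04 ± 0.31 (DESeq2 adjusted p = 0.0365). Mmp12, the macrophage elastase (ENSMUSG00000049723, chromosome 9, 7344381 to 7369499), had 84.4, 122 and 15.7 CPM with estrogen and 138, 340.3 and 228 CPM with vehicle, with separate groups. Its log2 fold change was -1.67 ± 0.68 (DESeq2 adjusted p = 0.207), and -1.19 without estrogen replicate 3, the library lowest in macrophage markers. Mmp13, the interstitial collagenase of rodents, was low throughout, at 0.933, 2.16 and 0.348 CPM with estrogen and 2.64, 9.11 and 2.56 CPM with vehicle. Its groups were separate (log2 fold change -2.05 ± 0.75, DESeq2 adjusted p = 0.0691), and without vehicle replicate 2 the value was -1.18. Mmp8, the neutrophil collagenase, had 1.14, 0.917 and 0.975 CPM with estrogen and 3.10, 0.506 and 0.651 CPM with vehicle. Vehicle replicate 1 alone stood high, and without it the log2 fold change of -0.48 ± 0.71 became 0.80. Mmp27 had 2.75, 5.63 and 1.53 CPM with estrogen and 3.41, 8.85 and 5.90 CPM with vehicle, overlapping groups and a log2 fold change of -0.87 ± 0.53, or -0.50 without vehicle replicate 2.

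The sequences before the starts of the 5 tested genes of the block are given because these genes are neighbours and some carry an AP-1 match while some do not. AP-1 is the Fos and Jun factor known to drive several metalloproteinase genes. The 250 bases upstream of each RefSeq start (GRCm38.p6, the same assembly as mm10, plus strand for all 5) were searched on both strands for TGANTCA, the AP-1 consensus, and TATAAA, the core of the TATA box. These motifs do not overlap each other, and matches stand in capitals.
Mmp13, chr9:7272264-7272513: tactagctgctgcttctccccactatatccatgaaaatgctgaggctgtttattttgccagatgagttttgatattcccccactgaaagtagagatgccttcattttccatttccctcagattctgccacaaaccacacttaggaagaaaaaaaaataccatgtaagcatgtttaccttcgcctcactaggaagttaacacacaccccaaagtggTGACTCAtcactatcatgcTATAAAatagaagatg
Mmp12, chr9:7344147-7344396: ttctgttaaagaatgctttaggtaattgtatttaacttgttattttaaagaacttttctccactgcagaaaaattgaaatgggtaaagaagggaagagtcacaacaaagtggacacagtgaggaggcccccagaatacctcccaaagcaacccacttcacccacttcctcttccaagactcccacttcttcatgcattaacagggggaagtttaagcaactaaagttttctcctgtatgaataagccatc
Mmp3, chr9:7445572-7445821: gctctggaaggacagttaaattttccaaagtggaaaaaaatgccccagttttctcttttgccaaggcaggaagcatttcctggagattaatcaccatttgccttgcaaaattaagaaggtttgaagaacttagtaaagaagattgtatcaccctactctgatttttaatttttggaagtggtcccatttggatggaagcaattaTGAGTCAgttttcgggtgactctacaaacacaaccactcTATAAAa
Mmp8, chr9:7558179-7558428: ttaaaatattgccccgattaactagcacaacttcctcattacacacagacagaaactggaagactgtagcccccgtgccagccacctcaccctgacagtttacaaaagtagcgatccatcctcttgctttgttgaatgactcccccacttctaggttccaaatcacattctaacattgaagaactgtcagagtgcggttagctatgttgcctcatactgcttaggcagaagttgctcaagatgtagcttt
Mmp27, chr9:7571146-7571395: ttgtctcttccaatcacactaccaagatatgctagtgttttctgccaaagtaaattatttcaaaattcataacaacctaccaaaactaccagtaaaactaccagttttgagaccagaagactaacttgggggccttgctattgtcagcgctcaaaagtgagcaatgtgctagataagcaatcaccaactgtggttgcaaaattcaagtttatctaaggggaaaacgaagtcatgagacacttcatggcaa
Mmp13 and Mmp3 each held 1 AP-1 match, 35 and 46 bases before the start, and each also held a TATA match, while Mmp12, Mmp8 and Mmp27 held neither in this window. RefSeq windows were matched for 36 of the 55 members. The 19 without a window, which were not searched, include Mmp2, Mmp9, Mmp19, Lox, Loxl1, Loxl2 and Loxl3. The RefSeq starts of Adamts20 and Mmp11 lay 61068 and 3994 bases from their deposited gene starts. An AP-1 match was found in 6 of the 9 genes of the block and in 0 of the 27 members elsewhere, against 6.75% of 32851 windows of the same length. A TATA match was found in 6 of the 9 and in 3 of the 27 elsewhere, against 12.4% of all windows. The full palindromic estrogen response element was in 0 of the 36 windows and in 0.0639% of all windows. A match is a description of these letters. The log2 fold changes were -2.05 and -1.04 for Mmp13 and Mmp3, which held both matches. For Mmp12, Mmp8 and Mmp27, which held neither, they were -1.67, -0.48 and -0.87. Whether the matches bear on these values was not tested.

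Among the remaining Mmp genes, Mmp23 (ENSMUSG00000029061, chromosome 4, 155650655 to 155653384), an enzyme anchored in the membrane by its precursor, had 14.3, 17.7 and 6.97 CPM with estrogen and 28.3, 59.9 and 26.3 CPM with vehicle. Its groups were separate and its log2 fold change was -1.55 ± 0.43 (edgeR adjusted p = 0.207, DESeq2 adjusted p = 0.0193), and -1.07 without vehicle replicate 2. Mmp19, which cleaves basement membrane proteins, had 89.5, 86.0 and 71.9 CPM with estrogen and 141, 109 and 94.0 CPM with vehicle, a smaller difference of -0.48 ± 0.18 on the log2 scale with separate groups, or -0.30 without vehicle replicate 1. Mmp28, or epilysin (ENSMUSG00000020682, chromosome 11, 83440768 to 83463071), was the 1 member whose estrogen libraries all lay above the vehicle ones, at 44.8, 41.1 and 42.8 CPM with estrogen and 32.7, 26.9 and 38.4 CPM with vehicle. Its log2 fold change was 0.39 ± 0.15 (edgeR unadjusted p = 0.0303, adjusted p = 0.215). Mmp11, or stromelysin 3, had 10.99, 7.79 and 14.1 CPM with estrogen and 6.86, 20.1 and 12.9 CPM with vehicle, overlapping groups at -0.28 ± 0.40, and 0.15 without vehicle replicate 2. Exons of Mmp19, Mmp28, Mmp11 and Mmp12 overlap those of an opposite-strand protein-coding neighbour, and whether counting used strand is not given in the sources used here, so their counts are uncertain. For Mmp11 the neighbour Chchd10 held 21976 counts in the 6 libraries.

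**Figure D3:**
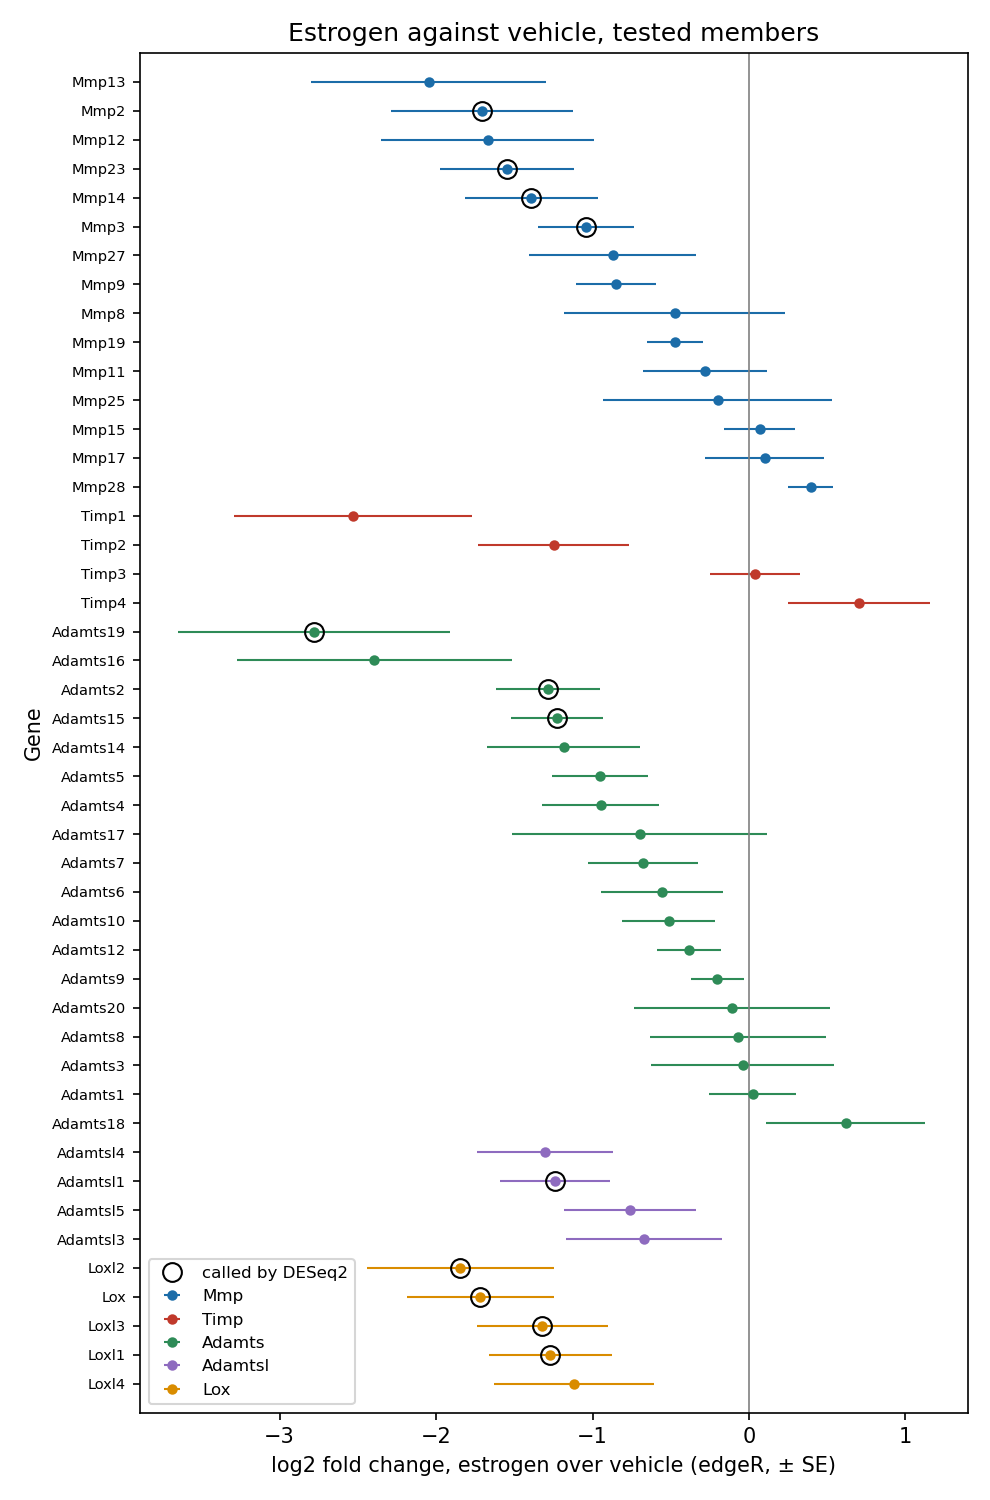
Log2 fold change, estrogen over vehicle, with its SE from edgeR, for the 46 tested members by family; open circles mark the 12 that DESeq2 called. All 5 lysyl oxidase genes and all 4 tested Adamtsl genes lie left of 0, whereas the Timp genes run from -2.53 (Timp1) to 0.70 (Timp4).

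Of the 4 inhibitors, Timp1 and Timp2 had negative fold changes and Timp3 and Timp4 positive ones. Timp1 (ENSMUSG00000001131, chromosome X, 20870166 to 20874735), the inducible inhibitor, had 11.7, 28.3 and 3.07 CPM in estrogen replicates 1 to 3, against 121, 91.2 and 36.7 CPM in vehicle replicates 1 to 3. The groups did not overlap, and within the estrogen group replicate 2 stood well above replicate 3. Its log2 fold change was -2.53 ± 0.76 (edgeR unadjusted p = 0.0121, adjusted p = 0.207; DESeq2 adjusted p = 0.0745), a 5.78-fold lower level, and it ranged from -3.47 to -2.05 as each library was left out. Timp2 (ENSMUSG00000017466, chromosome 11, 118301069 to 118355740), which with Mmp14 takes part in the activation of Mmp2, had 483, 441 and 180.4 CPM with estrogen and 482, 1388 and 757 CPM with vehicle. Estrogen replicate 1 and vehicle replicate 1 were nearly equal, so the groups overlapped. Its log2 fold change was -1.25 ± 0.48 (edgeR adjusted p = 0.222, DESeq2 adjusted p = 0.0723), and -0.75 without vehicle replicate 2.

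Timp3, the inhibitor that binds to the matrix itself (ENSMUSG00000020044, chromosome 10, 86300372 to 86349506), had 112, 80.8 and 135 CPM with estrogen and 67.2, 128 and 124 CPM with vehicle. The groups overlapped fully, and the log2 fold change of 0.04 ± 0.29 was -0.15 with scaling by library totals. Timp4 (ENSMUSG00000030317, chromosome 6, 115241892 to 115252205), an inhibitor abundant in adipocytes, had 32.2, 27.2 and 81.3 CPM with estrogen and 22.9, 21.9 and 41.5 CPM with vehicle. Estrogen replicate 3 was well above every other library, and it also had the highest adipocyte marker sum. The log2 fold change of 0.70 ± 0.45 (edgeR adjusted p = 0.395) was 0.05 without that library and -0.08 without estrogen replicates 1 and 3. Timp3 and Timp4 share exonic bases with the opposite-strand genes Syn3 and Syn2, so their counts carry the same uncertainty.

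Ratios of 2 members within a library do not depend on the scaling between libraries. Of 9 such ratios, chosen after the values were seen, the log2 ratio of Timp3 to Timp2 averaged -1.66 ± 1.09 with estrogen and -2.96 ± 0.43 with vehicle (SD, n = 3), and that of Timp4 to Timp2 averaged -3.03 ± 1.62 with estrogen and -4.86 ± 0.98 with vehicle. In both, every estrogen library lay above every vehicle library. The exact two-sided permutation p was 0.1, the smallest that 3 against 3 allows, and 0.225 adjusted over the 9. Estrogen replicate 3 stood far above the others. Timp3 to Timp2 was -2.10, -2.45 and -0.42 in estrogen replicates 1 to 3, against a highest vehicle value of -2.61. Timp4 to Timp2 was -3.91, -4.02 and -1.15, against a highest vehicle value of -4.19. The ratio of Mmp14 to Timp2 averaged -1.33 ± 0.34 with estrogen and -1.27 ± 0.28 with vehicle, a difference of -0.06 (exact permutation p = 0.8). The ratio of Mmp2 to Timp2 averaged -0.73 ± 0.30 with estrogen and -0.34 ± 0.27 with vehicle, with overlapping groups (exact permutation p = 0.2). Lox to Loxl1 averaged -0.59 ± 0.30 with estrogen and -0.04 ± 0.30 with vehicle, with separate groups (exact permutation p = 0.1, adjusted p = 0.225). Loxl2 to Loxl1 averaged -1.73 ± 0.59 with estrogen and -0.99 ± 0.38 with vehicle, with overlapping groups (exact permutation p = 0.2). Timp1 to Timp2 and Mmp2 to Timp3 were lower with estrogen, with overlapping groups (exact permutation p = 0.2 for each). Mmp28 to Mmp2 was higher with estrogen, with separate groups (exact permutation p = 0.1).

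The procollagen N-proteinases cut the amino-terminal propeptide from fibrillar procollagens. Adamts2 (ENSMUSG00000036545, chromosome 11, 50602084 to 50807573), the main enzyme of this kind, had 107, 120.3 and 64.5 CPM in estrogen replicates 1 to 3, against 163, 340.2 and 209 CPM in vehicle replicates 1 to 3. The groups were separate, with a log2 fold change of -1.29 ± 0.33 (edgeR unadjusted p = 0.00584, adjusted p = 0.207, DESeq2 adjusted p = 0.0141), and -0.935 without vehicle replicate 2. Its relative Adamts14 had 11.7, 13.9 and 4.39 CPM with estrogen and 24.4, 32.2 and 11.8 CPM with vehicle, with overlapping groups and a log2 fold change of -1.19 ± 0.49. Adamts3, another of the kind, had 0.881, 1.18 and 0.279 CPM with estrogen and 0.559, 1.27 and 0.607 CPM with vehicle and was at -0.04 ± 0.59, running from -0.44 to 0.42 as 1 library was left out.

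The proteoglycanases, which cleave aggrecan and versican, were mixed. Adamts15 (ENSMUSG00000033453, chromosome 9, 30899155 to 30922452) had the smallest edgeR unadjusted p of any member (0.0039, edgeR adjusted p = 0.207, DESeq2 adjusted p = 0.012). It had 31.1, 40.1 and 22.3 CPM with estrogen and 67.3, 99.9 and 52.1 CPM with vehicle. Its log2 fold change was -1.23 ± 0.29, and -0.938 without vehicle replicate 2. Adamts5 (ENSMUSG00000022894, chromosome 16, 85856173 to 85901828), a major aggrecanase of cartilage, had 124, 99.9 and 55.2 CPM with estrogen and 138, 218 and 184 CPM with vehicle. Its groups were separate at -0.95 ± 0.31 (DESeq2 adjusted p = 0.0559). Its neighbour on chromosome 16, Adamts1, had 52.7, 61.1 and 97.0 CPM with estrogen and 61.2, 55.4 and 90.6 CPM with vehicle. Here the groups overlapped fully, with a log2 fold change of 0.02 ± 0.28 that turned to -0.18 with scaling by library totals. Adamts4 was at -0.95 ± 0.37, or -1.52 without estrogen replicate 2, with overlapping groups, and its counts carry the strand uncertainty described above. Adamts9, which cleaves versican and whose exons overlap little-counted opposite-strand genes, was at -0.20 ± 0.17, with 38.8, 34.4 and 39.0 CPM with estrogen and 36.9, 37.9 and 54.2 CPM with vehicle. The low-level genes Adamts20 and Adamts8 were at -0.11 ± 0.63 and -0.07 ± 0.56, and as 1 library was left out they ran from -0.55 to 0.25 and from -0.44 to 0.35.

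Among the other Adamts proteases, 8 of 9 passed the filter and 7 of these 8 were negative. The largest differences were in low-level genes. Adamts19 had 0.415, 0.327 and 0.0697 CPM with estrogen and 3.76, 1.67 and 0.477 CPM with vehicle, a log2 fold change of -2.78 ± 0.87 (DESeq2 adjusted p = 0.0438) that moved to -1.91 without vehicle replicate 1. Adamts16 had 1.24, 2.03 and 0.279 CPM with estrogen and 2.08, 13.5 and 3.30 CPM with vehicle, at -2.40 ± 0.88, or -1.18 without vehicle replicate 2, which held most of its counts. Both had separate groups. For Adamts19, however, estrogen replicate 3 held 1 count, which is under the floor. The nearest libraries of the 2 groups held 8 counts (estrogen replicate 1) and 11 counts (vehicle replicate 3). Adamts12 and Adamts7, which cleave cartilage oligomeric matrix protein, were at -0.38 ± 0.20 and -0.68 ± 0.35, Adamts10, linked to fibrillin microfibrils, at -0.51 ± 0.30, and Adamts6 at -0.56 ± 0.39, with overlapping groups in each. As 1 library was left out, Adamts12 ran from -0.57 to -0.24, Adamts7 from -0.91 to -0.38, Adamts10 from -0.73 to -0.28 and Adamts6 from -0.83 to -0.31. Exons of Adamts7 overlap those of the opposite-strand gene Tbc1d2b, which held 8153 counts in the 6 libraries, so its counts are uncertain too. The low-level genes Adamts18 and Adamts17 were at 0.62 ± 0.51 and -0.70 ± 0.82. Adamts18 was at 0.10 without estrogen replicate 3, and Adamts17 ran from -1.61 without estrogen replicate 3 to -0.15 without estrogen replicate 1.

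The ADAMTS-like genes, whose products bind fibrillin and matrix without cutting it, were all negative among the 4 tested. Adamtsl1 (ENSMUSG00000066113, chromosome 4, 85514172 to 86428385) had 14.7, 15.9 and 9.40 CPM with estrogen and 20.1, 48.1 and 26.3 CPM with vehicle, with separate groups and a log2 fold change of -1.24 ± 0.35 (edgeR adjusted p = 0.207, DESeq2 adjusted p = 0.0296). Adamtsl4, known for its role in fibrillin fibres of the eye, had 24.7, 19.9 and 8.64 CPM with estrogen and 26.6, 63.2 and 41.9 CPM with vehicle. Its groups were separate at -1.30 ± 0.43 (DESeq2 adjusted p = 0.0502). Adamtsl5 and Adamtsl3 had overlapping groups, at -0.76 ± 0.42 and -0.67 ± 0.50. Adamtsl5 was at -0.32 without vehicle replicate 2, and Adamtsl3 at -0.29 without estrogen replicate 3 and -1.23 without estrogen replicate 1. Adamtsl1 was at -0.80 without vehicle replicate 2. In all 4 the lowest library was estrogen replicate 3.

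The lysyl oxidases had the lowest median of the families, at -1.32, with all 5 genes tested, all 5 negative, and separate groups in all 5, against 14.7% of all genes with separate groups and estrogen lower. Lox (ENSMUSG00000024529, chromosome 18, 52516069 to 52529867), the founding enzyme, which cross-links collagen and elastin, had 134, 137 and 41.0 CPM in estrogen replicates 1 to 3, against 359.6, 437 and 227 CPM in vehicle replicates 1 to 3. The log2 fold change was -1.72 ± 0.47, a 3.29-fold lower level (edgeR unadjusted p = 0.00769, adjusted p = 0.207; DESeq2 adjusted p = 0.011, the smallest of the members). Loxl1 (ENSMUSG00000032334, chromosome 9, 58287738 to 58313186), needed for elastic fibre renewal, had 170.2, 194 and 77.7 CPM with estrogen and 291, 510.1 and 264 CPM with vehicle. Its log2 fold change was -1.27 ± 0.39 (DESeq2 adjusted p = 0.0335), and -0.91 without vehicle replicate 2. Loxl2 (ENSMUSG00000034205, chromosome 14, 69609068 to 69695834), which acts on basement membrane collagen, had 68.3, 70.4 and 14.6 CPM with estrogen and 189, 261 and 102 CPM with vehicle, at -1.85 ± 0.60 (DESeq2 adjusted p = 0.0253). Estrogen replicate 3 was far under the other estrogen libraries for Loxl2, and without it the value was -1.40. Loxl3 had 14.0, 14.2 and 4.95 CPM with estrogen and 24.0, 38.6 and 20.6 CPM with vehicle, at -1.32 ± 0.42 (DESeq2 adjusted p = 0.0444), and its exons overlap those of the opposite-strand gene Htra2. Loxl4, the least abundant per kilobase, had 5.70, 4.32 and 1.32 CPM with estrogen and 6.25, 11.7 and 6.86 CPM with vehicle, at -1.12 ± 0.51 (DESeq2 adjusted p = 0.17), or -0.72 without estrogen replicate 3. Summed over the family, the level was 317 ± 154 CPM in estrogen libraries, against 916 ± 322 CPM in vehicle libraries (SD, n = 3). Without estrogen replicate 3 the family median was -0.97, and without vehicle replicate 2 it was -1.01.

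**Figure D4:**
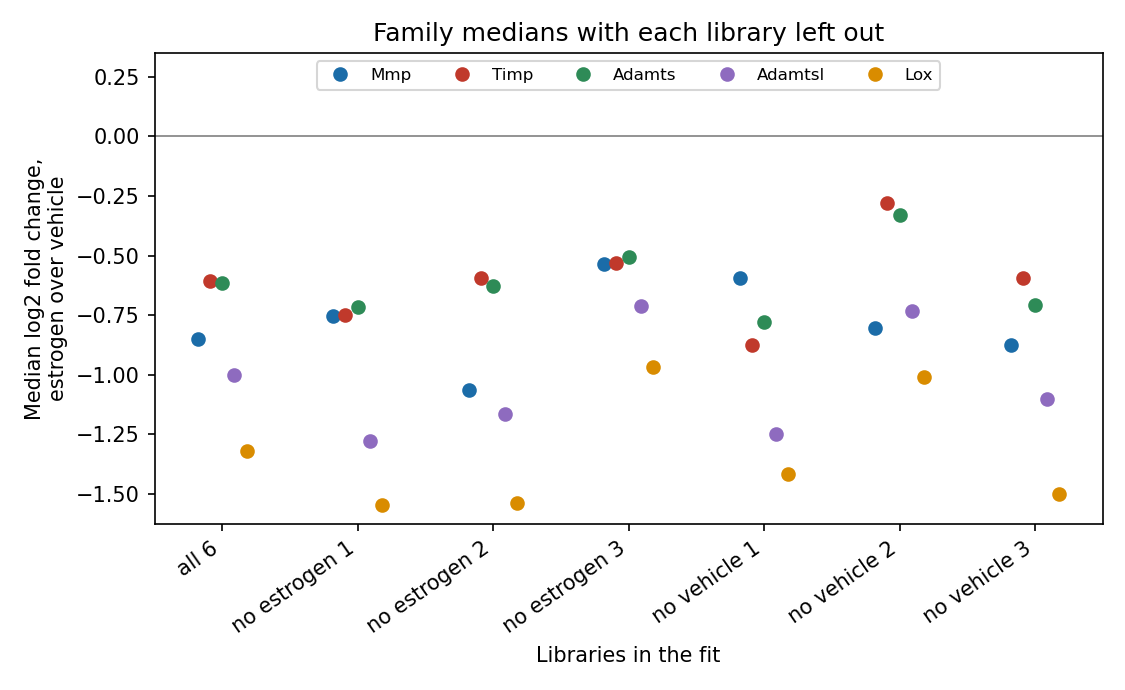
Median log2 fold change, estrogen over vehicle, of the tested genes of each family, with all 6 libraries and with each library left out in turn. All medians stay below 0, the lysyl oxidases lowest in every fit (-1.55 to -0.97), and the Timp median comes nearest to 0 without vehicle replicate 2 (-0.28).

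The other 9 members did not pass the filter. Mmp7 and Mmp20 had no count in any library, which allows at most 3 counts per library, or 0.13 to 0.209 CPM. Mmp21, Mmp1b, Adamts13, Mmp16 and Mmp24 had 1 to 10 counts in the 6 libraries together. Mmp10, stromelysin 2, had 2, 11 and 0 counts in estrogen replicates 1 to 3 and 6, 17 and 3 in vehicle replicates 1 to 3. Adamtsl2 had 21, 8 and 7 counts with estrogen and 7, 7 and 35 with vehicle. The fit without a low-count filter, which covered 53 members, called 0.

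Other genes of matrix turnover lay lower as well. Of 55 listed genes that are not members, 49 were tested and 47 had negative log2 fold changes (median -1.13). By edgeR 0 passed the adjusted threshold (smallest adjusted p = 0.207), with 36 lower (73.5%) and 0 higher at an unadjusted p under 0.05, against 10.9% lower and 9.49% higher of all genes. DESeq2 called 19 lower (38.8%) and 0 higher, against 3% lower and 2.48% higher of all genes. Eln, or elastin, a lysyl oxidase substrate, had 95.8, 96.6 and 68.7 CPM with estrogen and 156, 549.8 and 229 CPM with vehicle (-1.84 ± 0.45, DESeq2 adjusted p = 0.00415). Bmp1, the procollagen C-proteinase that also activates pro-lysyl oxidase, was at -1.65 ± 0.47, and the plasminogen activator gene Plat at -1.58 ± 0.56. Others that DESeq2 called lower included Pcsk5, Tfpi2, Cd44, Adam10, Adam17, Adam19, Mrc2, Pcolce, Fn1, Bgn, Lum, Col5a1, Col5a2, Col6a1 and Col6a2. The basement membrane collagens Col4a1 and Col4a2 (-0.25 ± 0.26 and -0.14 ± 0.25), the proprotein convertase Furin (0.03 ± 0.20) and the metalloproteinase inducer Bsg (0.22 ± 0.19) were near 0.

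Markers of fibroblasts and of macrophages moved with these genes. All 8 of 8 fibroblast and progenitor markers had negative log2 fold changes (median -1.14), and their summed level was 702 to 1432 CPM in estrogen libraries and 1759 to 3817 CPM in vehicle libraries. Estrogen replicate 3 was the lowest and vehicle replicate 2 the highest of the 6, as for the members. All 8 of 8 macrophage markers were negative (median -1.21), at 460.5 to 1496 CPM summed with estrogen and 1993 to 2820 CPM with vehicle. Adipocyte markers were positive in 6 of 8 (median 0.50). Neutrophil markers were negative in 5 of 5 tested (median -1.28), and Ngp and Camp, which mark immature neutrophils, were at most 0.674 CPM. Their sum stood high in vehicle replicate 1 alone (161.5 CPM). Vehicle replicates 2 and 3, at 35.4 and 32.3 CPM, were near the estrogen libraries (26.8 to 32.8 CPM). Smooth muscle and pericyte markers were negative in 5 of 8 (median -0.06), and endothelial markers positive in 7 of 8 (median 0.33). The part of these cell types in the members' differences was not tested.

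**Figure D5:**
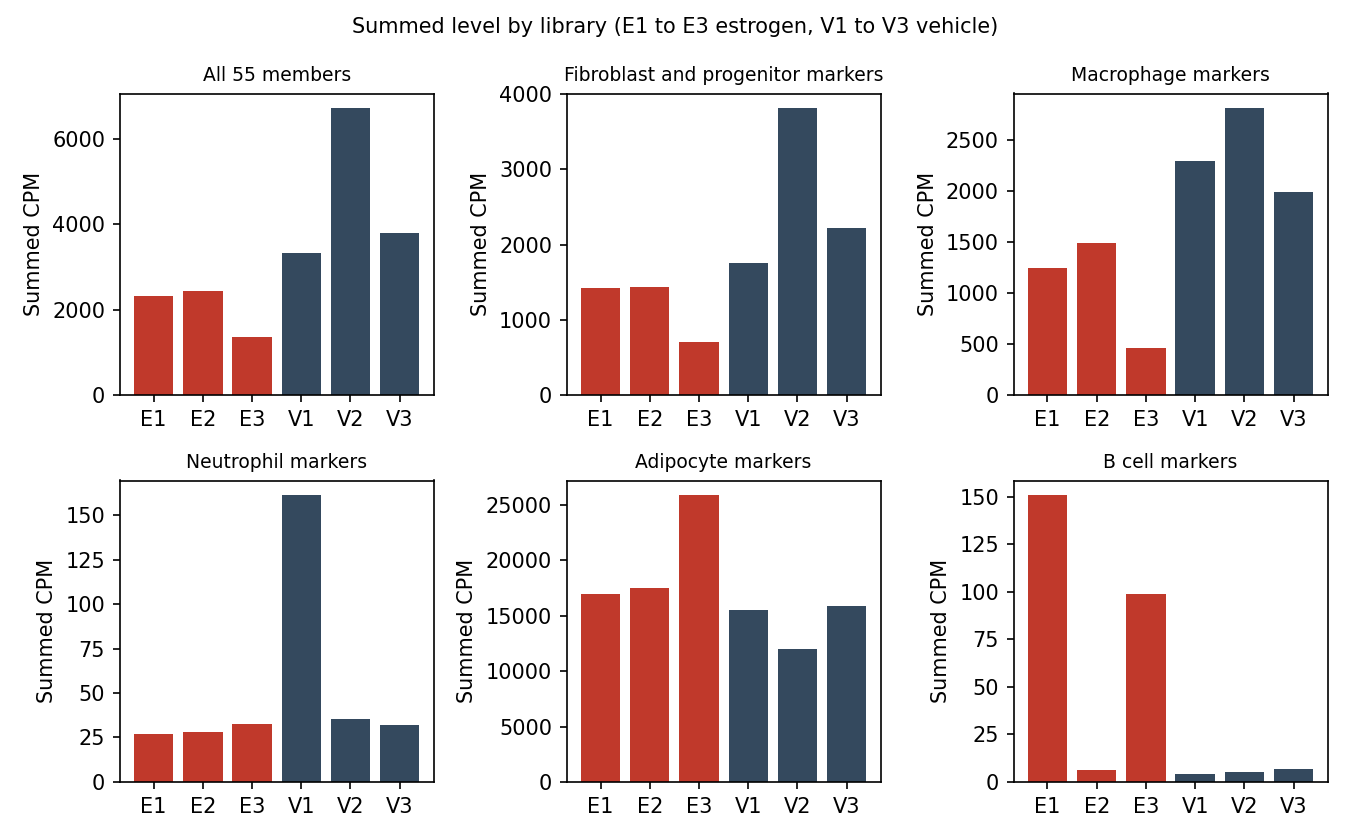
Summed CPM by library of all 55 members and of 5 marker lists, with estrogen libraries (E1 to E3) left of vehicle libraries (V1 to V3). The members (1354 to 2443 CPM with estrogen, 3334 to 6732 with vehicle), the fibroblast and progenitor markers and the macrophage markers are all lowest in E3 and highest in V2, and neutrophil markers stand out in V1.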

How the data were processed

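The authors deposited raw read counts per Ensembl gene, made with HISAT2 and featureCounts on mm10 per the submitters' processing notes; the sources used here give no versions, strand setting or treatment of multi-mapped reads. Columns were matched to samples through the sample descriptions, and their numbers differ from the replicate numbers of the titles, which are used here. Gene lengths came from the deposited table, and 53 of 55 members had the same start and end in GENCODE M21, used for overlaps. Counts were scaled by TMM, filtered with filterByExpr (15591 genes kept) and fitted, with no replicate block, in edgeR (quasi-likelihood test). P-values were adjusted over every tested gene by Benjamini-Hochberg, with a threshold of 0.05. SEs come from the F statistic. The fits were tested on simulated data. The software was DESeq2 1.42.0, limma 3.58.1 and edgeR 4.0.16 under R 4.3.3. Alternatives covered scaling, filter, DESeq2, limma-voom, a replicate block and leaving out libraries, and leaving out estrogen replicates 1 and 3 together was added after seeing the data.

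As with the members, the lists and tests were chosen with earlier results of these data known. The genes named were all tested Timp and lysyl oxidase genes, other tested members with an average log2 CPM of at least 0, and any called by edgeR or DESeq2, with the remaining members named after their values were seen. A gene that DESeq2 called in the matrix turnover list is not reported here. Promoter windows are RefSeq's. The floor of 3 counts covers counting error only.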

Additional observations from a re-analysis of the deposited data

How the results depend on the processing

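By edgeR, 0 members passed the adjusted threshold under every scaling, filter, block and left-out library tried, and limma-voom also called 0. DESeq2 called 12 members lower, with 386 genes higher and 468 lower over all genes. Without estrogen replicate 2, edgeR called 13 genes higher over all genes, none a member, and the other fits with 1 library left out called 0. At an unadjusted p under 0.05 the members on the lower side numbered 10 to 22 as 1 library was left out, with 10 without vehicle replicate 2, and 4 with estrogen replicates 1 and 3 left out; those on the higher side numbered 0 to 1, 0 with library totals and 2 with the replicate block. The Mmp median ran from -1.06 to -0.53 as 1 library was left out. Scaling by library totals alone shifted the median of all genes to -0.17 and turned Adamts1 (-0.18), Mmp15 (-0.094), Mmp17 (-0.074) and Timp3 (-0.15) negative. With limma-voom Mmp8 was at 0.034. With 1 library left out, Adamts1 ran from -0.28 to 0.27, Mmp8 from -0.88 to 0.80, Mmp15 from -0.22 to 0.25, Mmp17 from -0.15 to 0.25, Mmp25 from -0.75 to 0.82, Mmp11 from -0.59 to 0.15 and Timp3 from -0.21 to 0.22. With estrogen replicates 1 and 3 left out, Adamts1 was at -0.17, Timp3 at -0.39 and Timp4 at -0.076. No cause of these changes was tested.

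The sources used here name no pairing of libraries, so the main fit had no replicate block. Deviations of same-numbered libraries from their group means had r = -0.123, 0.163 and 0.289 across genes for numbers 1, 2 and 3. The numbers are those of the titles, and under number 2 the 2 libraries carry different numbers in the deposited columns. With 3 libraries per group, these values cannot decide whether libraries were paired. The replicate block left 0 members called, with 24 lower and 2 higher at an unadjusted p under 0.05. Over all genes, 3305 of 15591 lay under 0.05 in either direction with the block. The smallest edgeR adjusted p of a member was 0.0594 with the block, against 0.207 in the main fit. Genes under about 1 CPM rest on few counts, and differences there could be missed at this depth.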
